A study of Mus musculus with 17 samples.

Results

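Freshly sorted Kit+ and Kit- cells of the aorta-gonad-mesonephros (AGM) region of E11.5 mouse embryos were compared across 19937 genes. The comparison used 6 of the 17 arrays of the series, 3 of Kit+ cells and 3 of Kit- cells, picked by their titles as the time-zero arrays, and each gene was represented by its brightest probe set among those that carried a single gene symbol. Both populations were sorted as CD31+ CD45- Ter119- cells from pooled AGM regions and differed in the sort only by Kit, the receptor for stem cell factor. They were neither cultured nor treated, and the sources used here state no mouse strain or genotype for the arrayed embryos, nor how many embryos formed a pool. The other 11 arrays came from the same CD31+ CD45- Ter119- population, kept for 2 hours on OP9 stroma that expressed the Notch ligand Jag1 or Dll4 and then sorted again into Kit- and Kit+ cells (Kit-J with 2 arrays, and Kit+J, Kit-D and Kit+D with 3 each). The fresh arrays were taken from an earlier study, so that culture and set of arrays cannot be told apart.

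In the mid-gestation embryo, a specialised haemogenic endothelium in the ventral wall of the dorsal aorta gives rise to clusters of round cells that enter the blood lineage and include the first haematopoietic stem cells. During this endothelial-to-haematopoietic transition, cells loosen their junctions, leave the vessel wall and gain blood regulators such as Runx1 and Gata2, and the emerging clusters carry Kit on their surface. The AGM region also contains the genital ridges, and primordial germ cells that settle there carry both Kit and CD31, so that a Kit+ CD31+ gate could hold them as well as cluster cells.

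Arrays of one population resembled each other more than those of the other. Across all genes, the correlation was 0.979 to 0.983 between arrays of 1 fresh group and 0.951 to 0.957 between the groups, and the median log2 signal of the 6 arrays lay between 5.24 and 5.33. The labels call the arrays biological replicates and do not say how the pools were made. The p-values thus measure the spread between arrays, and in the main fit that spread is shared with the cultured arrays. The array signals are relative, with no count of molecules behind them, and the number of arrays limits the precision.

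The genes of the sort antibodies and the markers of endothelium were read first as a check of the labels. Kit stood at log2 signals of 8.29, 8.21 and 8.13 in Kit- cells and at 9.55, 9.44 and 9.54 in Kit+ cells. The difference was 1.30 ± 0.259 (SE of the fit of all arrays, cultured ones included, with n = 3 arrays a fresh group, limma adjusted p = 0.00936). Kit RNA was therefore higher on every Kit+ array, as the labels require, although it was still well above the median signal on the Kit- arrays. Pecam1, which encodes CD31, was read at 9.98, 9.92 and 10.02 in Kit- cells and at 9.13, 8.96 and 9.17 in Kit+ cells, so that both populations held the RNA of the antigen they were sorted for. Ptprc, which encodes the excluded CD45, was at 9.19, 8.46 and 8.12 in Kit- cells and at 8.35, 8.57 and 8.55 in Kit+ cells, with overlapping groups and well above the median signal in both. Of the endothelial markers, Kdr and Cdh5 were bright in Kit- cells, as given below. On the Kit+ arrays Kdr lay below the median signal of 5.29 and Cdh5 above it, at 5.65 to 6.55. The CD31+ Kit+ population thus did not carry these endothelial RNAs at the level of the Kit- cells.

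In total, 644 of the 19937 genes differed between Kit+ and Kit- cells at an adjusted p under 0.05, or 3.23% of the genes tested. More genes were lower in Kit+ cells (532, or 2.67%) than higher (112, or 0.562%). The higher calls depended on the processing, with 41 against 462 lower after scaling on housekeeping genes, 62 against 520 with all probe sets tested and 736 against 992 with array weights. Falls were also larger than rises. Among the genes that fell, the median log2 difference was -1.52, 164 fell at least 4-fold and 46 at least 8-fold, whereas the median rise was 0.979 and 4 genes rose at least 4-fold. Of the genes that fell, 209 had a Kit+ mean below the median of all values, low in the range of the array. The called genes had groups that did not overlap in 643 of 644 cases, against 26.5% of all genes with no overlap (16% with all Kit+ arrays above and 10.5% with all of them below). Calls and overlaps come from the same values, so that this is no separate support for the calls. The median difference over all genes was 0.0649. A difference of at least 2-fold was reached by 495 of the called genes (2.48% of those tested), 51 higher (0.256%) and 444 lower (2.23%). In a fit of the 6 fresh arrays alone, whose spread is not shared with the more variable cultured arrays, 1335 genes were called (6.7%), 481 higher (2.41%) and 854 lower (4.28%), and these held 600 of the 644. Without Kit+ replicate 3 the count was 417, with 29 genes higher and 388 lower. Because these are bulk samples, fewer cells of a type and less RNA per cell cannot be told apart in any of the differences below.

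**Figure D1:**
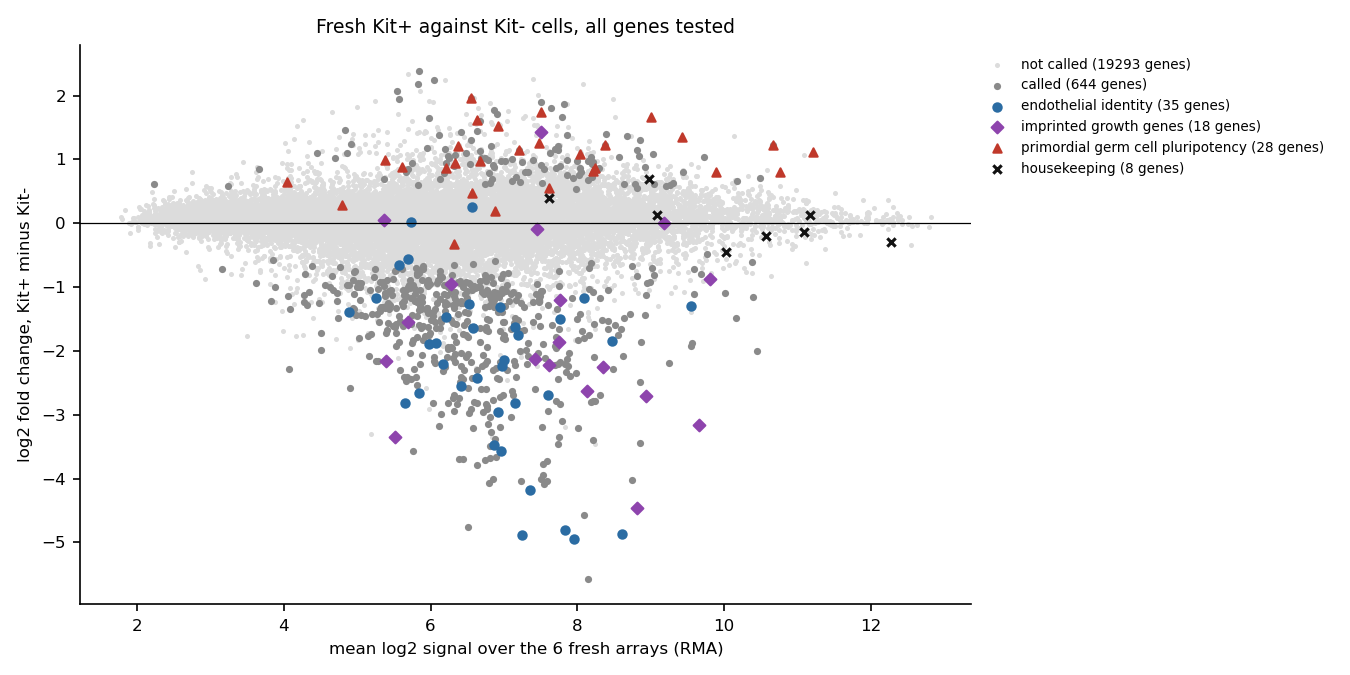
Each point is 1 of 19937 genes, with its mean log2 signal over the 6 fresh arrays on the x axis and its log2 difference, Kit+ minus Kit- cells, on the y axis. Endothelial identity genes and imprinted growth genes lie mostly below 0, down to -4.95 and -4.47, genes of primordial germ cells lie mostly above 0, and the housekeeping genes lie near it.

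The gene with the largest fall was Tmem255a, a little studied transmembrane protein. It was read at 10.98, 10.96 and 10.86 in Kit- cells and at 5.06, 5.33 and 5.70 in Kit+ cells. The gene fell 47.5-fold (log2 difference -5.57 ± 0.526, SE of the fit of all arrays, n = 3 and 3 fresh arrays, limma adjusted p = 1.73e-05). Its weakest Kit- array was thus more than 5 log2 units above its brightest Kit+ array. After it came Aplnr, the receptor for apelin on venous and sprouting endothelium, at 10.30, 10.48 and 10.53 against 5.25, 5.39 and 5.83. Next in order were Kdr, Cdh5, Emcn (endomucin, a sialomucin of venous and capillary endothelium) and Klhl4, a kelch-repeat protein. Klhl4 was at 8.99, 8.90 and 8.78 in Kit- cells and at 4.13, 4.21 and 4.05 in Kit+ cells (-4.76 ± 0.243, adjusted p = 6.14e-08), with little spread in either group. The remaining genes of the 15 largest falls spanned log2 differences from -4.57 to -4.01 and were the matricellular protein Sparcl1, the imprinted gene Mest, the receptor activity modifier Ramp2, the IGF-binding protein Igfbp3, Nrp1, the guidance receptor Flrt2, the LIM-domain cofactor Ldb2, the embryonic globin Hbb-y and the laminin chain Lama4. All 15 kept their call without any 1 of the 6 fresh arrays.

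**Figure D2:**
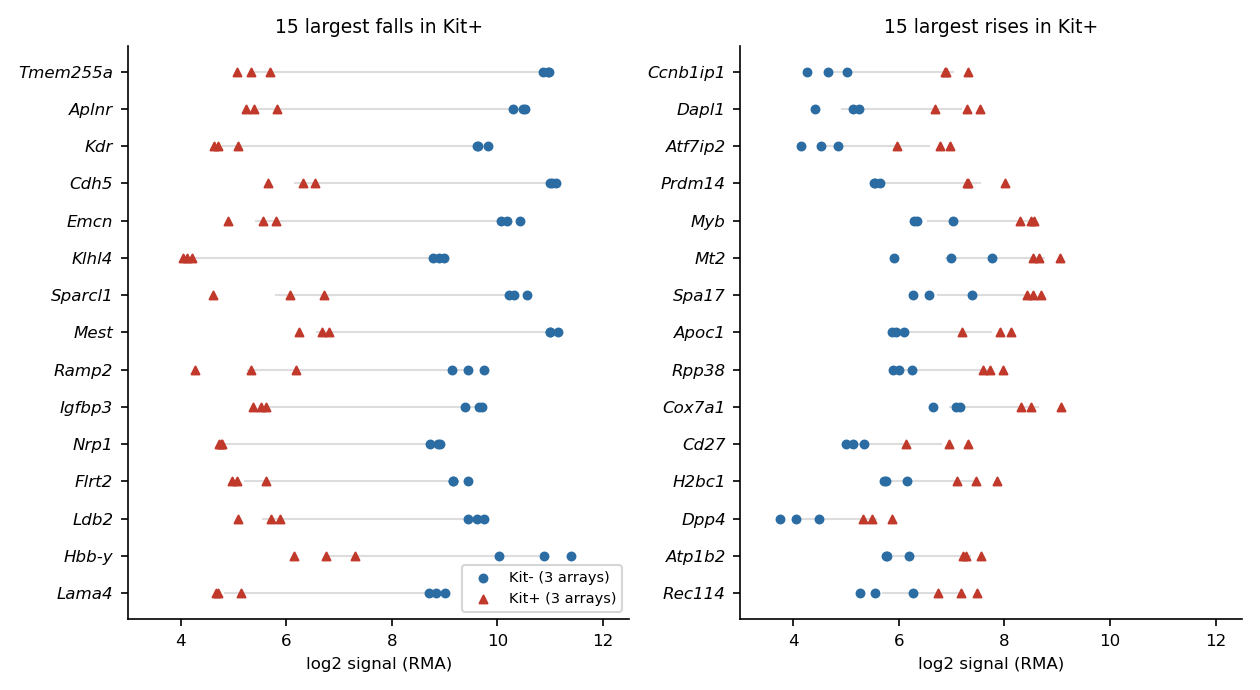
The log2 signals of the 15 genes with the largest falls and the 15 with the largest rises are plotted array by array, with 3 Kit- arrays (circles) and 3 Kit+ arrays (triangles) for each gene and a line that joins the group means. The genes were picked among called genes with no overlap between groups, so that the 3 Kit+ arrays lie on one side of the 3 Kit- arrays by choice. The gaps are wider among the falls, where Tmem255a drops from about 10.9 to 5.36.

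Endothelial identity genes, which encode the receptors, adhesion molecules and regulators that define a vessel-lining cell, fell as a group. Of the 35 measured, 28 were lower in Kit+ cells (80%, against 2.67% of all genes) and none higher. The median log2 difference was -1.89, against 0.0649 over all genes. On 33 of the 35, every Kit+ array lay below every Kit- array, against 10.5% of all genes. The mean log2 signal of the list was 7.89 to 8.02 over the Kit- arrays and 5.63 to 5.81 over the Kit+ arrays. Kdr, the main VEGF receptor of endothelium, was read at 9.62, 9.83 and 9.64 in Kit- cells and at 4.71, 5.08 and 4.63 in Kit+ cells. The groups lay far apart, with a 29.6-fold fall (-4.89 ± 0.337, adjusted p = 9.16e-07), and the Kit+ values were below the median of the array. Cdh5, the adhesive cadherin of endothelial junctions, went from 10.999, 11.10 and 11.04 to 5.65, 6.31 and 6.55, a difference of -4.87 ± 0.550 (adjusted p = 7.65e-05). Its Kit+ arrays differed more among themselves than its Kit- arrays, but all remained above the median signal. Emcn was at 10.07, 10.19 and 10.43 in Kit- cells and at 4.90, 5.80 and 5.57 in Kit+ cells. Clec14a and the phosphatase Ptprb, both endothelial membrane proteins, fell by 2.81 and 3.56 on the log2 scale. Cd34 and Erg, which blood progenitors express as well as endothelium, had differences of -1.29 and -1.18 that did not pass the test (adjusted p = 0.102 and 0.0916). Genes of primordial germ cells were higher on the same Kit+ arrays, as given below, and their part in these falls was not tested.

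Receptors for the vascular growth factors were among the steepest falls. Of 12 genes of VEGF receptors, neuropilins and their ligands, 6 were lower (50%, against 2.67% of all genes), 0 were higher and the median was -1.46. The co-receptor Nrp1, which binds VEGF and semaphorins, was at 8.87, 8.91 and 8.72 in Kit- cells and at 4.77, 4.78 and 4.74 in Kit+ cells. Its difference of -4.07 ± 0.191 had the smallest adjusted p of the genes named here (3.67e-08), and its Kit+ arrays were nearly equal. Its homologue Nrp2 fell by 3.14, Flt1, a decoy receptor for VEGF, by 2.96, Flt4, the receptor of the lymphatic ligand, by 2.66 and that ligand, Vegfc, by 1.97. In the angiopoietin system, which steadies vessels, 3 of 7 genes were lower (42.9%). Tek, the angiopoietin receptor, was at 8.39, 8.95 and 8.47 in Kit- cells and at 5.20, 5.08 and 5.12 in Kit+ cells, and Tie1, its partner, fell by 2.23. The ligands Angpt1, Angpt2 and Angpt4 did not pass the test, at 1.02, -0.31 and -0.02.

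The start-site regions of Kdr and Nrp1 are shown as examples of genes that fell steeply and carry G-rich letters near their start, a feature more frequent among the genes that fell. Each sequence spans 250 bases before and 50 after the first listed start of the gene in the RefSeq annotation of GRCm38.p6 and is written along the gene's strand. Capitals mark the G-rich motif GGGAGGG, the GC box GGGCGG, the core of ETS sites CGGAAG, the E-box CACGTG and the CCAAT box CCAATC on either strand. In Nrp1 one match of GGGAGGG and one of GGGCGG overlap. Kdr lies at chr5:75978406-75978705 on the minus strand and Nrp1 at chr8:128358823-128359122 on the plus strand.
Kdr: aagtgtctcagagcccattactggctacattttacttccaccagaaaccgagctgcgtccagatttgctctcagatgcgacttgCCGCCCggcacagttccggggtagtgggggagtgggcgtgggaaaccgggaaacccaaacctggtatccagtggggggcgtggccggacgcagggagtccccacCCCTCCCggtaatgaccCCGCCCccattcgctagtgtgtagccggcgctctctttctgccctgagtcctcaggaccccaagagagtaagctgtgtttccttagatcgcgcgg
Nrp1: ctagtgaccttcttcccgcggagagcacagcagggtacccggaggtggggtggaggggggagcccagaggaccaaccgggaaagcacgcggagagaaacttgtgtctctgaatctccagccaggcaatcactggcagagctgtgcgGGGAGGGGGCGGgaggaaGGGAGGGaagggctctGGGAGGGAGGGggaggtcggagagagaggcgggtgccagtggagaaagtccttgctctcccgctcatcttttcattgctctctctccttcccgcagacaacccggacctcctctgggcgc
Over the genes with a promoter in that table, GGGAGGG was found in 40.4% of 403 promoters of genes that fell, in 24.7% of 89 promoters of genes that rose, in 25.3% of 15561 tested genes and in 21.3% of all 27025 promoters. Emcn, another of the steepest falls, held none of these motifs and 2 CpG in its window (41% GC). GGGCGG, the GC box, was in 64% of both called sets and in 49.9% of the tested genes, and called promoters were also richer in CpG, with a median of 19 and 21 CpG for falling and rising genes against 15 for the tested genes. The median GC content was highest for falling genes, at 62.7%, against 59% for rising and 57.7% for tested genes. Its part in the motif shares was not tested. These letters were looked up with 19 motifs in all, chosen after the values were seen, and the matches are a description of the windows with no test.

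Both arterial and venous genes were lower in Kit+ cells. Of 18 arterial genes, 14 were lower (77.8%, against 2.67% of all genes) and none higher (median -1.19). Of 14 venous and lymphatic genes 8 were lower (57.1%) and none higher (median -1.65). Gja5, the connexin of arterial endothelium, was at 9.47, 9.79 and 9.28 in Kit- cells and at 6.37, 5.16 and 4.98 in Kit+ cells, so that Kit+ replicate 1 was the highest of its group but still far below the Kit- arrays. Efnb2, the arterial ephrin, was at 9.02, 9.19 and 8.65 in Kit- cells and at 6.63, 6.60 and 6.30 in Kit+ cells. On the venous side, Nr2f2, the transcription factor that sets venous fate, went from 8.12, 7.82 and 8.01 to 5.51, 5.32 and 5.33 (-2.60 ± 0.195, adjusted p = 2.50e-06). The arterial count was 7 to 10 with 1 fresh array left out, and 7 without Kit+ replicate 3.

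The Notch pathway, in which a ligand on one cell releases the intracellular part of a receptor on its neighbour, was read from its ligands down to its targets. Of 9 receptors and ligands, Jag1, Dll4 and Notch4 were lower (33.3%, against 2.67% of all genes) and none was higher (median -0.41). Jag1 was at 6.22, 7.07 and 6.26 in Kit- cells and at 5.20, 5.16 and 4.49 in Kit+ cells (-1.57 ± 0.343, adjusted p = 0.0181). Dll4 was at 5.89, 6.14 and 5.95 in Kit- cells and at 5.25, 4.94 and 4.64 in Kit+ cells (-1.05 ± 0.232, adjusted p = 0.0201). Both ligands were thus lower on every Kit+ array, with Jag1 highest in Kit- replicate 2. The receptor Notch1 was at 7.41, 7.16 and 7.45 in Kit- cells and at 7.16, 6.37 and 7.09 in Kit+ cells, where the nearest arrays met and the difference of -0.47 did not pass the test (adjusted p = 0.402). Notch4, the receptor of endothelium, fell by 0.92 (adjusted p = 0.0416) and missed the threshold in the fit of the fresh arrays alone (0.0909) and with housekeeping scaling (0.135), other variance priors (0.0512) or all probe sets (0.0804). These calls were not stable to the loss of 1 array. Jag1 missed the threshold without Kit- replicate 2 or Kit+ replicate 3 (adjusted p up to 0.100), Dll4 without any fresh array but Kit+ replicate 1 (up to 0.109) and Notch4 without any of 4 arrays, namely Kit- replicates 2 and 3 and Kit+ replicates 1 and 3 (up to 0.206), and no member was called without Kit- replicate 2.

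Among 26 Notch targets and modulators, 3 were lower (against 2.67% of all genes) and none higher (against 0.562%), with a median of -0.13. Hey2, a repressor induced by Notch in arteries, was at 5.58, 5.91 and 5.01 in Kit- cells and at 3.54, 3.53 and 3.46 in Kit+ cells (-1.99 ± 0.213, adjusted p = 5.31e-05). Ccnd1, the cyclin that starts the cell cycle, was at 8.75, 8.68 and 9.10 against 6.65, 6.34 and 7.02 (-2.18 ± 0.276, adjusted p = 0.000213). The groups were well apart in both genes, and Efnb2 was the other called target. Hes1 and Hey1, the targets most often used as a readout of the pathway, had differences of 0.31 and -0.12 with overlapping groups.

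Genes that hold an endothelial cell in the vessel wall were lower across several lists. Of 21 junction genes and cadherins 10 were lower (47.6%, median -1.03), and of 22 basement membrane genes 12 (54.5%, median -1.11). Lower as well were 8 of 17 matrix proteases and inhibitors (47.1%, median -1.09), 5 of 9 caveola genes (55.6%, median -1.05) and 5 of 16 integrins (31.2%, median -0.61). No gene of these lists was higher, and over all genes 2.67% were lower and 0.562% higher. Lama4, a laminin chain of endothelial basement membrane, was at 8.70, 9.002 and 8.84 in Kit- cells and at 4.70, 5.13 and 4.68 in Kit+ cells. Cav1, the coat protein of caveolae, went from 8.09, 9.08 and 9.001 to 4.99, 5.12 and 5.07, with the lowest Kit- value in replicate 1. Cdh2, the neural cadherin that endothelium also carries, was at 7.52, 7.55 and 7.93 against 4.85, 5.16 and 4.93. All 3 genes were separated by more than 2 log2 units between the nearest arrays. Other falls of these lists were the tight-junction protein Cgnl1 (-2.42), the basement membrane linker Nid1 (-2.84), the membrane protease Mmp14 (-2.81) and the collagen receptor subunit Itga2 (-2.91). The integrin count fell to 3 without Kit+ replicate 3, where Itga1 reached an adjusted p of 0.0597 and Itga5 one of up to 0.105.

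The actin cytoskeleton followed the same direction. Of 25 genes of actin and contractility 15 were lower (60%, against 2.67% of all genes) and none higher (median -1.05). Myh10, a non-muscle myosin heavy chain, was at 9.03, 9.15 and 9.30 in Kit- cells and at 6.44, 7.50 and 6.51 in Kit+ cells, and Vim, the intermediate filament of mesenchymal and endothelial cells, remained bright in both, at 11.04, 10.93 and 10.94 against 9.76, 9.94 and 9.75. The fall of Vim (-1.15 ± 0.159, adjusted p = 0.000461) was thus a change among abundant transcripts. With 1 fresh array left out the count of the list was 8 to 12, and 8 without Kit- replicate 3.

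Guidance genes, which steer axons and vessel sprouts with the same molecules, were also lower. This held in 15 of 34 cases (44.1%, against 2.67% of all genes) with none higher (median -0.91). Plxnd1, the endothelial semaphorin receptor, was at 9.42, 9.62 and 9.79 in Kit- cells and at 6.60, 6.46 and 6.13 in Kit+ cells. Its fall of 3.21 was accompanied by those of the class 6 semaphorins Sema6a (-3.03) and Sema6d (-3.78) and of the receptor Robo1 (-2.73).

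Of 25 transcription factors and cofactors of endothelium, 15 were lower (60%, against 2.67% of all genes) and none higher (median -1.42). Ldb2, a cofactor that bridges LIM-domain factors, was at 9.61, 9.44 and 9.74 in Kit- cells and at 5.89, 5.08 and 5.72 in Kit+ cells, and Ets1, a founding member of the ETS family, fell by 2.15 and Tcf4 by 1.65. In the BMP and TGF-beta pathways 9 of 23 genes were lower (39.1%). Among them were the co-receptor Eng (-1.76), the type I receptor Acvrl1 (-1.14) and the ligands Tgfb2 (-1.86) and Bmp4 (-1.68). In the Wnt pathway 5 of 25 were lower (20%), led by the receptor Fzd4 (-2.41). The calls of Lrp5, Fzd6 and Dkk2 were lost without Kit- replicate 2, where 2 genes of the list were left (adjusted p of up to 0.132, 0.140 and 0.166 with 1 array left out). Fzd6 was not called over the fresh arrays alone (0.106), and Lrp5 and Dkk2 were not called with the replicate block (0.0618 and 0.102). Of 37 Hox genes, which carry positional identity along the body axis, Hoxd10, Hoxa5, Hoxd8 and Hoxb4 were lower by 1.11 to 1.59 (10.8%). None was higher, and 32 of the 37 had negative differences, against 7599 of all 19937 genes. Hoxd8 just missed the threshold over the fresh arrays alone (adjusted p = 0.0501), and Hoxb4 missed it without Kit- replicate 3 or Kit+ replicate 2 (adjusted p up to 0.0697).

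**Figure D3:**
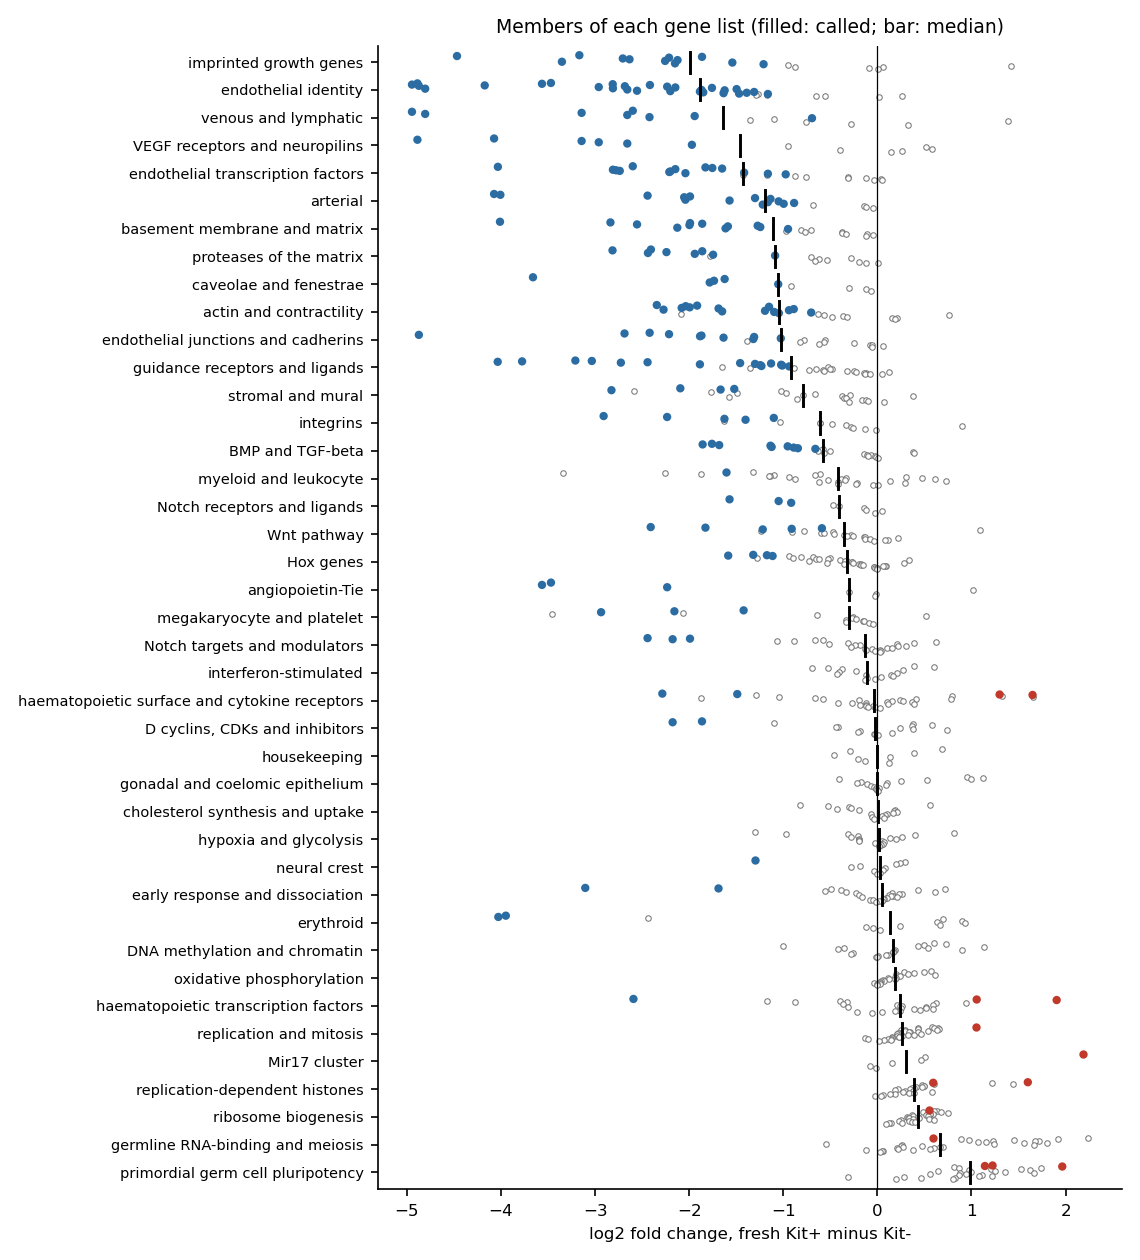
Each point is a gene of the list named on the y axis, placed by its log2 difference, Kit+ minus Kit- cells, on the x axis, with called genes filled and the median of each list as a bar. The endothelial lists lie to the left of 0, with a median of -1.89 for identity genes, and the lists of germ cell genes and of ribosome biogenesis lie to its right, with few of their genes called.

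Imprinted genes, of which only the maternal or the paternal copy is active and many of which control embryonic growth, formed another group that fell. Of 18 measured, 12 were lower (66.7%, against 2.67% of all genes) and none higher, with a median of -1.99. On 13 of 18 every Kit+ array lay below every Kit- array, against 10.5% of all genes, and on 1 every Kit+ array lay above. The differences ran from -4.47 to 1.42, and the fit of the fresh arrays alone called 13 lower and 1 higher. Peg10, a gene derived from a retrotransposon, was at 11.16, 11.32 and 11.26 in Kit- cells and at 7.87, 8.02 and 8.34 in Kit+ cells (-3.17 ± 0.193, adjusted p = 3.81e-07). Mest, a hydrolase expressed from the paternal copy, went from 10.997, 11.15 and 10.99 to 6.24, 6.82 and 6.68. Igf2, the fetal growth factor, was at 10.30, 10.33 and 10.21 in Kit- cells and at 7.33, 7.56 and 7.83 in Kit+ cells. These 3 transcripts were far above the median signal in Kit- cells and remained above it in Kit+ cells, with little spread among the Kit- arrays. Also lower were the cell cycle inhibitor Cdkn1c (-1.86), the membrane protein Nnat (-2.21) and the zinc finger factor Plagl1, which regulates other imprinted genes (-2.63). Both paternally and maternally expressed genes were among the falls, since Cdkn1c is active on the maternal copy and Peg10, Mest and Igf2 on the paternal. The count of the list was 10 or 11 without any 1 fresh array. The mean log2 signal of the list was 8.397 to 8.45 in Kit- cells and 6.71 to 6.82 in Kit+ cells. On the same arrays the mean of the list of primordial germ cell genes was 6.88 to 7.05 and 7.84 to 8.12, and that of the stromal list 5.84 to 6.09 and 5.03 to 5.11, and the part of either cell type in the falls of imprinted genes was not tested.

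The rises were fewer and smaller. With 1 probe set per gene, the largest was that of Ccnb1ip1, a ubiquitin ligase of meiotic crossing-over. Ccnb1ip1 was at 5.02, 4.65 and 4.26 in Kit- cells and at 6.90, 6.88 and 7.32 in Kit+ cells (2.39 ± 0.401, adjusted p = 0.00235). Spa17, a sperm autoantigenic protein, was at 6.28, 6.57 and 7.38 against 8.43, 8.53 and 8.69 (1.81, adjusted p = 0.00193), and H2bc1, the testis histone H2B, at 5.76, 5.72 and 6.16 against 7.11, 7.47 and 7.86 (1.60 ± 0.248, adjusted p = 0.00125). The 15 largest rises were picked among called genes with no overlap between groups, and these were the 3 of them that kept their call without any 1 fresh array. The others were Dapl1 (2.25), Atf7ip2 (2.07), Prdm14 (1.96), the transcription factor Myb (1.91), the metallothionein Mt2 (1.87), the apolipoprotein Apoc1 (1.78), the RNase P subunit Rpp38 (1.72), the cytochrome oxidase subunit Cox7a1 (1.67), the co-stimulatory receptor Cd27 (1.65), the peptidase Dpp4 (1.46), the sodium pump subunit Atp1b2 (1.44) and the meiotic recombination protein Rec114 (1.44). By that choice all 12 were higher on every Kit+ array than on any Kit- array, and all 12 missed the threshold without Kit+ replicate 1 or Kit+ replicate 3 or both. Their highest adjusted p values with 1 array left out ran from 0.0701 for Atf7ip2 to 0.194 for Prdm14. With all probe sets tested, Atf7ip2 and Atp1b2 were the only ones of the 12 still called, and with the replicate block Dapl1 was not called (adjusted p = 0.0609).

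Most regulators of blood formation did not pass the test. Of 26 haematopoietic transcription factors, Myb and Hlf were higher (7.69%, against 0.562% of all genes), Mecom was lower (3.85%, against 2.67%) and 23 did not pass (median 0.24). In this list too the spread was wider on the cultured arrays, with a median SD within groups of 0.584 against 0.24 on the fresh arrays. The fit of the fresh arrays alone called 2 higher and 3 lower. Myb, which definitive haematopoiesis requires, was at 6.34, 7.03 and 6.30 in Kit- cells and at 8.30, 8.51 and 8.57 in Kit+ cells (1.91 ± 0.468, adjusted p = 0.0373). Hlf, a factor of stem cells, was at 5.48, 5.65 and 6.02 against 6.69, 6.90 and 6.73 (1.06 ± 0.235, adjusted p = 0.0212). Both were clearly separated between the groups, but Myb kept its call only without Kit- replicate 2 and Hlf only without Kit- replicate 3 (adjusted p up to 0.137 and 0.107 in the other cases). Mecom, a zinc finger factor of stem cells and endothelium, was at 7.98, 8.54 and 7.65 in Kit- cells and at 5.95, 5.67 and 4.77 in Kit+ cells, and a second probe set of the gene had a difference of -0.88 with an adjusted p of 0.119.

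Runx1, the factor that drives the endothelial-to-haematopoietic transition, was at 7.83, 7.74 and 7.70 in Kit- cells and at 8.31, 8.28 and 7.84 in Kit+ cells. All Kit+ arrays were higher, but the difference of 0.39 did not pass the test (limma adjusted p = 0.846, and 0.201 over the fresh arrays alone). Kit+ replicate 3 lay next to the highest Kit- array. Gata2, which acts with Runx1, was at 6.74, 6.59 and 6.49 against 7.43, 7.33 and 6.95, a difference of 0.63 (limma adjusted p = 0.447, and 0.0602 over the fresh arrays alone). Gfi1 (0.21), which silences endothelial genes in emerging blood cells, Spi1 (0.45), a myeloid factor, and Itga2b (-0.26), which encodes the early blood marker CD41, had overlapping groups. Of 32 surface and cytokine receptors Kit and Cd27 were higher and Cd93 and Ackr3 lower (6.25% each way). Over all genes 0.562% were higher and 2.67% lower. The cells were sorted on Kit, so that its call comes from the gate and Cd27 is the only other higher call. Cd27, which marks blood progenitors, was at 5.34, 5.13 and 4.99 in Kit- cells and at 6.14, 7.30 and 6.96 in Kit+ cells and lost its call without any fresh array but Kit+ replicate 1 (adjusted p up to 0.128). Cd93, a lectin-like receptor of endothelium and progenitors, fell from 9.60, 9.78 and 9.50 to 7.31, 7.43 and 7.29.

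Most genes of primordial germ cells had positive differences, and a minority passed the test. Over all genes, 12338 of 19937 differences were positive. Of 28 pluripotency and early germ cell genes 27 had positive differences, 22 were higher on every Kit+ array than on any Kit- array, against 16% of all genes, and Ifitm1, Lin28b and Prdm14 passed the test (10.7%, against 0.562% of all genes; median 0.99). Of 31 genes of germline RNA binding and meiosis, 29 had positive differences, 19 lay above on every Kit+ array, and Sycp2 passed the test (3.23%, median 0.67). With all probe sets tested, a second, less bright probe set of Hormad1 rose by 3.12 (limma adjusted p = 0.0186). The probe set of Hormad1 used here had a difference of 0.97 (0.199). The spread behind the test was wide in these lists because it was shared with the cultured arrays. The median SD within groups was 0.293 over the fresh and 0.880 over the cultured arrays for the first list, and 0.207 and 0.720 for the second, against 0.185 and 0.272 over all genes. In the fit of the 6 fresh arrays alone, 17 of the 28 and 16 of the 31 genes were called, all higher.

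The genes that define germ cells illustrate this. Ddx4, the RNA helicase known as vasa, was at 5.83, 5.72 and 5.69 in Kit- cells and at 7.76, 7.36 and 7.54 in Kit+ cells, a difference of 1.81 with an adjusted p of 0.282 over all arrays and of 0.000402 over the fresh arrays. Dazl, an RNA-binding protein of germ cells, was at 7.93, 7.79 and 7.34 against 9.39, 9.29 and 9.37 (1.66; adjusted p = 0.507 and 0.00163). Pou5f1, the pluripotency factor Oct4, was at 7.62, 8.23 and 8.64 against 9.67, 9.63 and 10.20 (1.67; adjusted p = 0.563 and 0.0138). In all of them the 3 Kit+ arrays lay well above the highest Kit- array, and Pou5f1 and Dazl were well above the median signal in both populations. Dppa3, known as stella, was at 9.49, 9.77 and 9.18 in Kit- cells and at 10.28, 10.29 and 10.30 in Kit+ cells. Sycp3, of the axis of meiotic chromosomes, was at 5.55, 4.69 and 4.99 against 7.38, 7.37 and 7.19 (2.24; adjusted p = 0.0594 and 0.00143), and Sox2 (1.22) and Nanog (0.87) had no overlap either.

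Of the called members, Prdm14, which represses differentiation in germ cells, was at 5.56, 5.64 and 5.52 in Kit- cells and at 8.01, 7.29 and 7.32 in Kit+ cells (1.96 ± 0.506, adjusted p = 0.0481). Lin28b, a repressor of let-7 microRNAs that is active in both fetal blood progenitors and germ cells, was at 6.69, 6.65 and 6.56 against 7.10, 8.49 and 7.74 (1.14 ± 0.290, adjusted p = 0.0445). Ifitm1, an interferon-induced membrane protein that germ cells express, was at 9.95, 10.45 and 9.74 against 11.41, 11.18 and 11.23. The groups did not overlap, but Lin28b varied widely among the Kit+ arrays and missed the threshold in the fit of the fresh arrays alone, as did Sycp2. No single call of these lists was stable. Prdm14 lost its call without any of the 6 arrays (adjusted p up to 0.194), Lin28b without any but Kit+ replicate 1 (0.184), Ifitm1 without any but Kit- replicate 2 (0.117) and Sycp2 without any but Kit+ replicate 2 (0.194). With all probe sets tested, a second probe set of Ifitm1 rose by 1.54 (limma adjusted p = 0.0248), and the one used here missed the threshold (0.0512). Whether the probe sets of Ifitm1 and of the histone and globin genes also read related copies of their families was not tested.

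**Figure D4:**
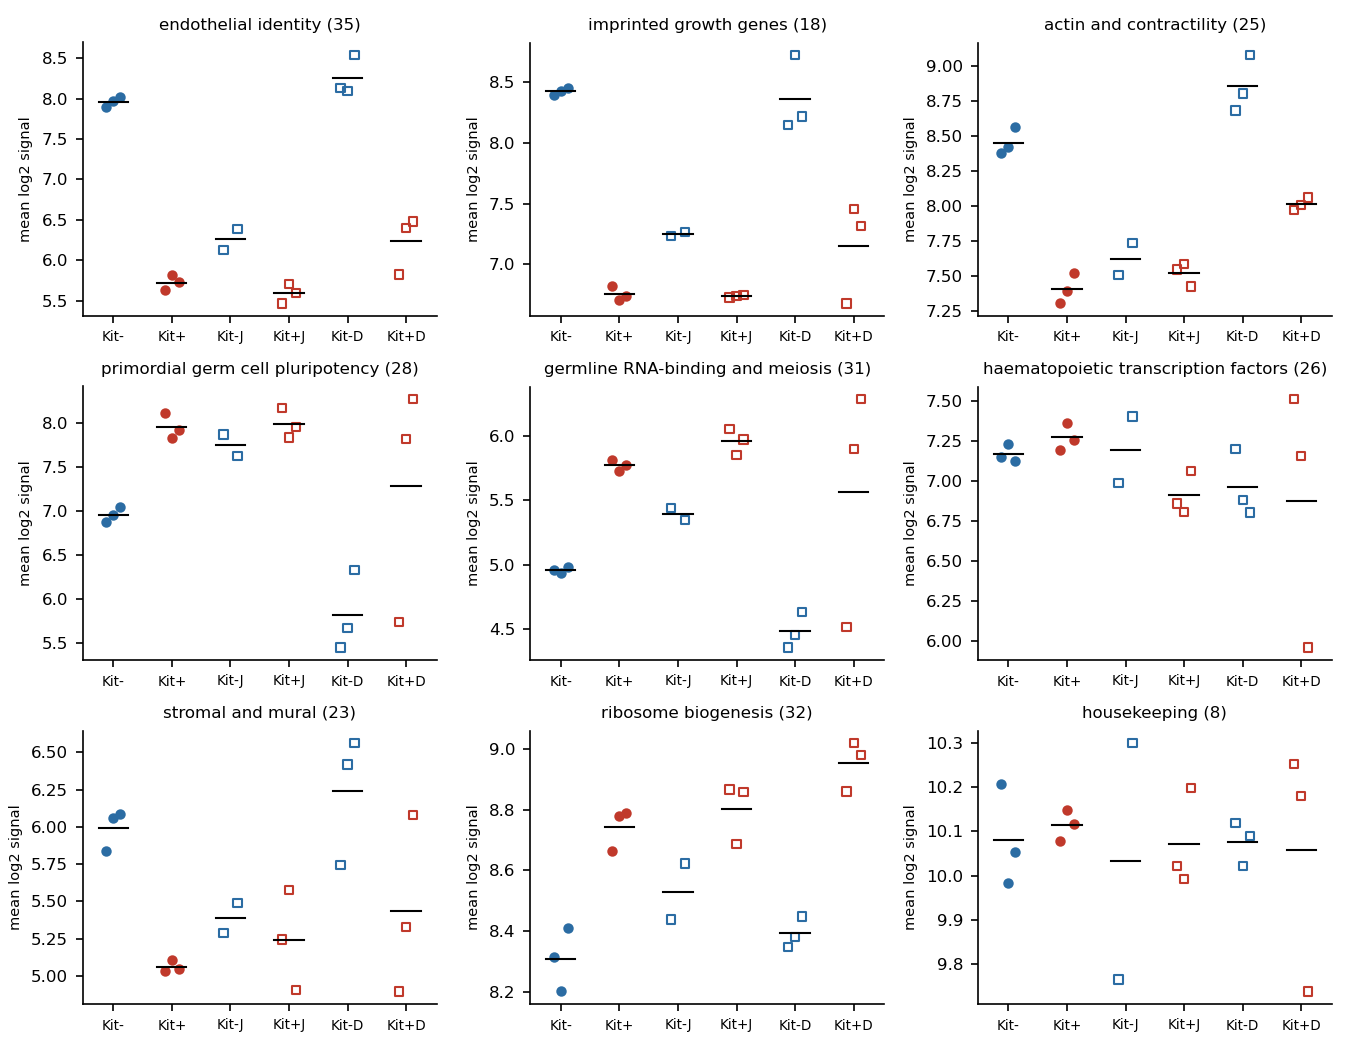
Each panel shows the mean log2 signal of the genes of a list on the y axis, with 1 point per array, the groups along the x axis, the group mean as a bar and a scale of its own for each panel. In fresh cells the endothelial mean drops from 7.89 to 8.02 in Kit- to 5.63 to 5.81 in Kit+ cells, while the mean of primordial germ cell genes is 6.88 to 7.05 in Kit- and 7.84 to 8.12 in Kit+ cells.

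The start-site regions of Rec114 and H2bc1 are shown as examples of genes that rose, since CCAATC was found in 34.8% of the 89 promoters of genes that rose, against 16.1% of those that fell, 18.4% of tested genes and 16.6% of all promoters. Windows, table and capitals are as above. Rec114 lies at chr9:58741510-58741809 and H2bc1 at chr13:23934107-23934406, both on the minus strand. Rec114 also holds CACGTG, an E-box found in 15.7% of rising, 5.46% of falling, 8.4% of tested and 7.24% of all promoters, and CGGAAG, the core of ETS sites, found in 32.6%, 14.4%, 22.6% and 17.2%.
Rec114: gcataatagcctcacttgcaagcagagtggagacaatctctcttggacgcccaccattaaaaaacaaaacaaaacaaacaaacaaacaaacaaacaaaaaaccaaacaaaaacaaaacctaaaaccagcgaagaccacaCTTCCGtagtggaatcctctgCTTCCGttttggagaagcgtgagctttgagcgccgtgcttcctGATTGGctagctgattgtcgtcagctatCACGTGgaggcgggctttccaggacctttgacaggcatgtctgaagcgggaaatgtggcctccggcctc
H2bc1: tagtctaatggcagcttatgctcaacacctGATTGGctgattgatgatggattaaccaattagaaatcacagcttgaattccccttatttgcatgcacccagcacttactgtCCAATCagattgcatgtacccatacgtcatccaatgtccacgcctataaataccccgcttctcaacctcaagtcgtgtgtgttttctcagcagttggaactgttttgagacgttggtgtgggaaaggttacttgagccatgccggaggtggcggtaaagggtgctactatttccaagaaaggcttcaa
In the H2bc1 window CCAATC occurs as 2 matches, 1 on each strand. TTTCGCGC, an E2F6-like motif, was found in 5 of the 89 promoters of rising genes (5.62%) and in 0.431% of tested genes.

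Genes of ribosome biogenesis, replication and histones had mostly positive differences, of which few passed the test. Over all genes, 12338 of 19937 differences were positive and 0.562% were called higher. All 32 genes of ribosome biogenesis had positive differences, with a median of 0.43 against 0.0649 for all genes, and 22 were higher on every Kit+ array (16% of all genes), but only Nop14, a factor of the small subunit, was called (0.55, adjusted p = 0.0485), and it was not called in the fit of the fresh arrays alone. Scaling the arrays on housekeeping genes left the median of the list at 0.40. Of 35 genes of DNA replication and mitosis 33 had positive differences (median 0.26) and Gins1, of the replicative helicase, was called at 8.35, 8.05 and 7.75 in Kit- cells and 9.08, 9.13 and 9.08 in Kit+ cells. Of 26 replication-dependent histone genes 25 were positive, and H2bc1 and H2bc22 were called. Gins1 and H2bc22 were not called with the replicate block. Nop14 and Gins1 lost their calls without any fresh array but Kit- replicate 1 (adjusted p up to 0.215 and 0.113), and H2bc22 without any of the 6 (up to 0.184). Of 17 cyclins, kinases and inhibitors Ccnd1 and Cdkn1c were lower (11.8%, against 2.67% of all genes) and none was higher.

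Of 296 microRNA precursors on the array, Mir18 alone was called (0.338%, against 0.562% of all genes called higher). It belongs to the Mir17 cluster, a run of precursors cut from a single transcript that is active in proliferating cells. The mature sequences of the cluster are shown because the array reads its precursors separately while the mature products fall into families by seed, the bases 2 to 8 in capitals. All are from RefSeq, on chromosome 14 of GRCm38.p6, plus strand, and the precursor of miR-92a was not measured.
mmu-miR-17-5p: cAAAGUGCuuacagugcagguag
mmu-miR-18a-5p: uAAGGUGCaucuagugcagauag
mmu-miR-19a-3p: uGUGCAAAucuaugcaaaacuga
mmu-miR-20a-5p: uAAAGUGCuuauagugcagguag
mmu-miR-19b-3p: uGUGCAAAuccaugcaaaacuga
mmu-miR-92a-3p: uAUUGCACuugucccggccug
The products of Mir17 and Mir20a share the seed AAAGUGC and those of Mir19a and Mir19b-1 share GUGCAAA, while that of Mir18 has AAGGUGC. Mir18 was at 4.74, 4.43 and 5.06 in Kit- cells and at 5.84, 7.24 and 7.70 in Kit+ cells (2.18 ± 0.447, adjusted p = 0.0114). The groups did not overlap, Kit+ replicate 1 was the lowest of its group, and the call was lost without Kit- replicate 2 or Kit+ replicate 2 or 3 (adjusted p up to 0.0708). No other precursor of the cluster passed the test, nor did its host transcript. Mir17 was at 4.58, 4.55 and 4.54 in Kit- cells and at 5.70, 6.12 and 3.38 in Kit+ cells, and the differences of Mir19b-1, Mir19a, Mir20a and the host Mir17hg were 0.46, 0.15, -0.08 and -0.02.

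Markers of other cells that the gate could hold were read on the same arrays. Of 12 erythroid genes, the embryonic globins Hba-x and Hbb-y were lower in Kit+ cells (16.7%, against 2.67% of all genes) and none was higher. Hba-x was at 8.89, 9.43 and 10.20 in Kit- cells and at 5.46, 5.76 and 5.45 in Kit+ cells, and Hbb-y at 10.02, 10.88 and 11.39 against 6.76, 6.15 and 7.30. In both genes the Kit- arrays rank the same way, with replicate 3 highest, and all lay far above the Kit+ arrays. The other 10 erythroid genes measured did not pass the test, among them Gata1 (0.89) and Klf1 (0.63), and the mean of the list was 6.20 to 6.72 in Kit- and 5.79 to 6.04 in Kit+ cells.

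Of 16 megakaryocyte genes 3 were lower in Kit+ cells (18.8%, against 2.67% of all genes). They were Vwf, which endothelium also stores (-1.42), Clec1b, the platelet receptor for podoplanin (-2.16), and the platelet chemokine Ppbp. Ppbp was at 6.30, 8.06 and 8.98 in Kit- cells and at 4.61, 4.597 and 5.32 in Kit+ cells, so that Kit- replicate 1 was well below the other Kit- arrays, and the call was lost without any fresh array but Kit- replicate 1 (adjusted p up to 0.146). Of 29 myeloid genes Clec7a, a fungal pattern receptor, was lower (3.45%, near the 2.67% of all genes called lower). Clec7a was at 6.78, 6.19 and 6.29 against 5.02, 4.79 and 4.64 (-1.61), and it lost its call without any of Kit- replicates 1 and 3 and Kit+ replicates 2 and 3 (up to 0.109). The mean of the myeloid list was 6.38 to 7.18 in Kit- and 6.06 to 6.10 in Kit+ cells. The median SD of this list was 0.391 over the fresh and 1.36 over the cultured arrays, and 6 myeloid genes were called lower in the fit of the fresh arrays alone. The mean of the megakaryocyte list was 6.62 to 7.48 in Kit- and 6.16 to 6.32 in Kit+ cells, so that the means of both lists lay higher on every Kit- array. The gate for CD45- Ter119- cells should remove erythroid and myeloid cells, and the part of any that remained was not tested.

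Stromal and mural genes were lower in Kit+ cells, with 4 of 23 called (17.4%, against 2.67% of all genes called lower) and a median of -0.79. Pdgfra, the receptor of mesenchyme, was at 7.005, 6.61 and 7.67 in Kit- cells and at 4.86, 5.20 and 4.95 in Kit+ cells (-2.09, adjusted p = 0.00308). Prrx1, a mesenchymal homeobox factor, was at 7.56, 7.38 and 8.36 against 4.65, 5.01 and 5.17, and Twist1 and Dcn fell by 1.52 and 1.67. Kit- replicate 3 was the highest array in both Pdgfra and Prrx1. The calls of Prrx1, Twist1 and Dcn were lost without most single arrays, Kit+ replicates 1, 2 and 3 among them (adjusted p up to 0.112, 0.0965 and 0.0950), which left Pdgfra alone without Kit+ replicate 1, whereas the fit of the fresh arrays alone called 10 genes of the list. The gate for CD31+ cells should remove stromal and mural cells, and the part of any that remained in the falls of matrix and cytoskeletal genes was not tested. Of 18 genes of gonadal and coelomic epithelium none was called by limma (2 at an unadjusted p under 0.05, and 2 called higher in the fit of the fresh arrays alone) and the median was -0.00. Of 11 neural crest genes Stmn2, a tubulin regulator of neurons, was lower by 1.30 (9.09%). Its call was lost without any of 4 arrays, namely Kit- replicates 2 and 3 and Kit+ replicates 1 and 3 (up to 0.0647).

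Early response genes, which tissue dissociation can induce, did not move together. Of 28 measured, the matricellular protein Ccn1 (-3.10) and the stress factor Atf3 (-1.69) were lower (7.14%, against 2.67% of all genes). The median was 0.05. Atf3 lost its call without any of the 6 fresh arrays (adjusted p up to 0.163). With limma, no gene passed the adjusted threshold among 17 interferon-stimulated genes, 21 of hypoxia and glycolysis, 18 of cholesterol synthesis, 23 of oxidative phosphorylation, 21 of DNA methylation and chromatin and 8 housekeeping genes. At an unadjusted p under 0.05 there were 0, 3, 3, 2, 9 and 2 genes in these lists, in that order. In the fit of the fresh arrays alone, 2 hypoxia genes were lower, and 1 gene of oxidative phosphorylation and 4 of chromatin were higher. The most negative and most positive differences in these lists were those of Slc2a1, a glucose transporter, at -1.30 (adjusted p = 0.0632), and Dnmt3b, a DNA methyltransferase, at 1.13 (adjusted p = 0.273).

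The same contrast of Kit+ with Kit- cells was then read on the arrays of cells kept on stroma, which share no array with the fresh contrast. In 4 of these arrays, both of Kit-J, the third replicate of Kit-D and that of Kit+D, a line in the description gives the opposite Kit state from the title and source, which were used here. On OP9-Dll4, 2615 genes were called (13.1%; 6.5% higher in Kit+D cells and 6.62% lower). Of the 532 genes that fell in fresh Kit+ cells, 527 had the same sign on OP9-Dll4 (99.1%, against 44.1% of all genes with a negative sign) and 449 were called lower, which is 84.4% of the fresh list and 34% of the 1319 genes lower on OP9-Dll4. Their median difference was -1.51, next to -1.52 in fresh cells. Of the 112 genes that rose, 104 had the same sign (92.9%, against 55.9% of all genes) and 54 were called higher, which is 48.2% of the fresh list and 4.17% of the 1296 genes higher on OP9-Dll4, with a median of 0.641. Without the 2 arrays of OP9-Dll4 whose labels disagree, 522 and 102 genes kept the sign and 384 and 35 were called in the same direction, with medians of -1.45 and 0.628.

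On OP9-Jag1 the contrast was smaller. There, 18 genes were called (0.0903%), 11 higher (0.0552%) and 7 lower (0.0351%). Of the genes that fell in fresh Kit+ cells, 428 of 532 had the same sign (80.5%, against 53.8% of all genes) with a median of -0.302, and 6 were called lower, or 1.13% of the fresh list and 85.7% of the 7. Of the genes that rose, 89 of 112 had the same sign (79.5%, against 46.2%), with a median of 0.378 and 0 called. Both Kit-J arrays carry the disagreeing line, so that no value is left without them. Kit itself was at 9.08 and 8.50 on the Kit-J arrays and at 9.93, 9.02 and 9.30 on the Kit+J arrays, so that the groups overlapped, with Kit-J replicate 1 above Kit+J replicate 2, and the difference of 0.63 did not pass the test (adjusted p = 0.458). Without Kit-J replicate 1 the sign was kept by 428 and 85 genes with medians of -0.345 and 0.337, and without Kit-J replicate 2 by 376 and 86 genes with medians of -0.228 and 0.361.

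**Figure D5:**
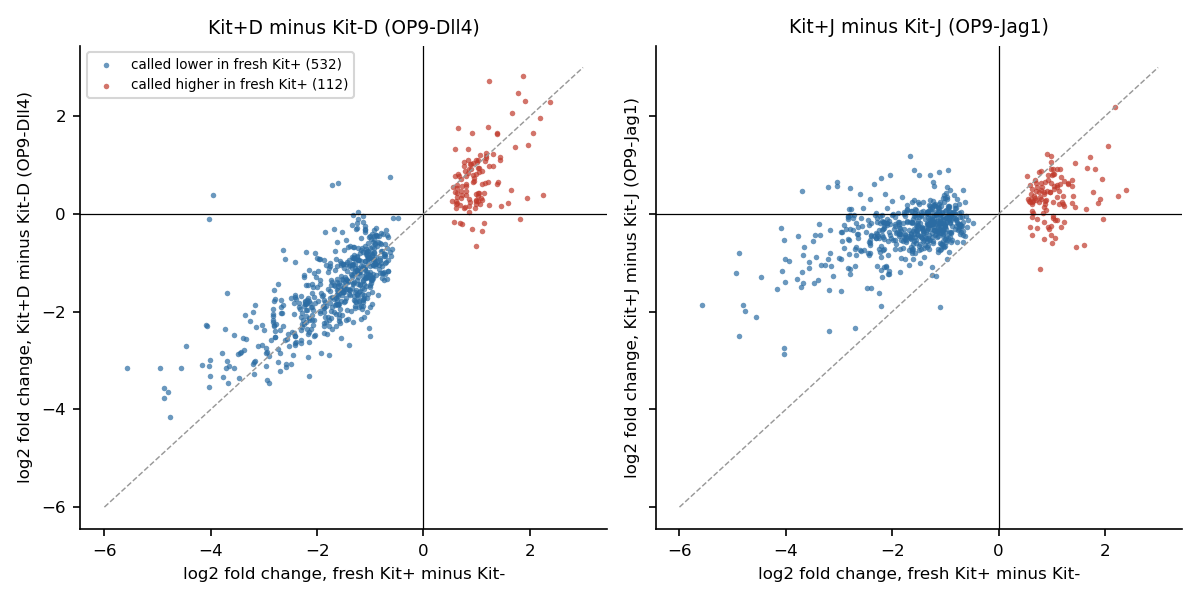
Each point is 1 of the 644 called genes, with its log2 difference between fresh Kit+ and Kit- cells on the x axis and the same difference in cells kept on stroma on the y axis, on OP9-Dll4 in one panel and on OP9-Jag1 in the other. Against fresh medians of -1.52 for genes that fell and 0.979 for genes that rose, the medians were -1.51 and 0.641 on OP9-Dll4 and -0.302 and 0.378 on OP9-Jag1 (dashed line, equal differences).

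The difference between the contrasts was tested in the same model. Between fresh cells and OP9-Jag1 it passed for 116 genes (0.582%), 5 with a more positive value in fresh cells (0.0251%) and 111 with a more negative one (0.557%), and of these 105 had fallen and 3 had risen in fresh Kit+ cells. Kdr had a difference of -4.89 in fresh cells, -0.80 on OP9-Jag1 and -3.77 on OP9-Dll4. The endothelial list as a whole had medians of -1.89, -0.53 and -1.78, and its mean signal in Kit- cells was 7.89 to 8.02 when fresh, 6.13 to 6.39 on OP9-Jag1 and 8.09 to 8.54 on OP9-Dll4, against 5.63 to 5.81, 5.46 to 5.71 and 5.82 to 6.48 in the respective Kit+ cells. For this list, the Kit- values on OP9-Jag1 were thus between those of fresh Kit- and Kit+ cells. Between fresh cells and OP9-Dll4 no gene passed with limma, while 1790 had an unadjusted p under 0.05, and limma called 3 genes with the replicate block. Among the named genes that fell in fresh cells, the globins Hba-x and Hbb-y and the myeloid receptor Clec7a had differences of 0.40, -0.10 and 0.64 on OP9-Dll4. Primordial germ cell genes had medians of 0.99 in fresh cells, 0.19 on OP9-Jag1 and 1.62 on OP9-Dll4, where 9 were called higher and 1 lower and their mean signal ran from 5.74 to 8.28 among the 3 Kit+D arrays. In Kit- cells the mean signal of these genes was 6.88 to 7.05 when fresh, 7.63 to 7.87 on OP9-Jag1 and 5.45 to 6.33 on OP9-Dll4. It was 7.84 to 8.12 in fresh Kit+ cells and 7.84 to 8.17 in Kit+J cells, so that the germ cell means of Kit-J cells also lay above those of fresh Kit- cells.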

How the data were processed

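Total RNA of cells sorted from pooled AGM regions was amplified and hybridized to Affymetrix Mouse Gene 1.0 ST arrays. The authors deposited 1 log2 value per probe set and array, and per the labels these were made with RMA, which corrects background, normalizes by quantiles and summarizes probes. The version of RMA is not given in the sources used here, nor whether all 17 arrays were normalized together, which bears on values set side by side between fresh and cultured cells.

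Of 34760 probe sets, 21640 had 1 gene symbol in the platform annotation, 1321 had several and 11799 had none, and 21553 were matched to RefSeq by gene number. The brightest probe set over all arrays represented each of 19937 genes, 954 of which had several. A linear model of the means of the 6 groups was fitted to all 17 arrays with limma 3.58.1 in R 4.3.3 (11 residual degrees of freedom before moderation of the variance), without a replicate block. P-values were adjusted over all genes after Benjamini and Hochberg, with 0.05 as the threshold for a call. Errors are standard errors of the model. Contrasts and differences of contrasts came from the same fit, which was tested on simulated data first. Gene lists were described by counts and medians with no test of the list. Figures were drawn with matplotlib 3.10.9 in Python 3.11.15.

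The genes compared and the lists were chosen with earlier results of these data known. Of called genes with no overlap between groups, the 15 that rose and the 15 that fell most were named (predicted genes, pseudogenes, small RNAs and Kit left out), with the genes of the sort antibodies, genes named by the study, at most 6 genes per list, taken by adjusted p, defining markers of other cell types and called microRNA precursors. Hes1, Hey1, Gfi1, Spi1, Sox2 and Nanog were added after their values were seen. Alternatives were the fresh arrays alone, other variance priors, array weights, scalings, filters and probe set rules, a replicate block, and each array left out in turn. The replicate numbers of fresh arrays were not taken to pair them, since same-numbered arrays deviated from their group means with correlations of 0.00644, 0.0323 and 0.065. Those of the OP9-Dll4 arrays deviated together, with correlations of 0.462, 0.179 and 0.289, so that the difference between the fresh and OP9-Dll4 contrasts is also given with the block.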

Additional observations from a re-analysis of the deposited data

Results flagged for a closer look

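The difference between Kit+ and Kit- cells was larger in fresh cells than on OP9-Jag1 for most of the 116 genes in which the 2 contrasts differed by a limma test of the difference itself. The named genes among them are given as the log2 difference in fresh cells minus that on OP9-Jag1. Kdr had -4.09, Igfbp3 -3.79, Aplnr -3.74, Flrt2 -3.50, Mest -3.17, Lama4 -3.10, Nrp1 -2.91, Klhl4 -2.77 and Cdh2 -2.51. Among Notch targets, Hey2 had -1.98, Ccnd1 -2.02 and Efnb2 -1.87. In all of these the fall seen in fresh Kit+ cells was smaller on OP9-Jag1. H2bc1 was the reverse, at 2.23, since it was higher in fresh Kit+ cells (1.60) and had a difference of -0.63 on OP9-Jag1. The Kit-J group has 2 arrays, both with a label line that names the opposite population, and the count of 116 was 38 without the first Kit-J array and 297 without the second.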

How the results depend on the processing

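The count of 644 genes called between fresh Kit+ and Kit- cells was 1335 with the 6 fresh arrays alone, 1728 with array weights, and 360 at an adjusted p under 0.01. With the replicate number as a block, it was 682 over all arrays (9 of the 257 named genes lost their call, namely Dapl1, Lrp5, Dkk2, Lin28b, Sycp2, Twist1, Gins1, H2bc22 and Nop14, and 20 gained one) and 1108 over the 6 fresh arrays alone. Leaving out 1 fresh array gave 417 to 463 genes, 417 being without Kit+ replicate 3. It stayed within 1.5 times of 644 with other variance priors (616), without dim genes (684), after renewed quantile normalization (708), scaling on housekeeping genes (503) or median centring (614), with averaged probe sets (642) or all probe sets (582), although the higher calls among them went from 112 to 41 with housekeeping scaling and to 62 with all probe sets, and with a log2 difference of at least 1 (495). No named gene that was called in the main fit or in the alternative reversed its direction under any of these. Changes of sign in genes called in neither, such as Ptprc, were not counted. The fresh arrays alone took the call from 6 named genes and gave it to 40, and leaving out 1 array took it from 22 to 34, mostly genes that rose.

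On OP9-Jag1, 18 calls became 2 with the 5 arrays of that culture alone and 3 to 386 with 1 array left out, and 12 with the replicate block. On OP9-Dll4, 2615 became 1321 with the 6 arrays of that culture alone, 1488 without Kit-D replicate 3 and Kit+D replicate 3 (chosen after seeing the data), 1573 to 3077 with 1 array left out and 2270 with the replicate block. The 116 genes that differed between the fresh and OP9-Jag1 contrasts became 38 to 297 with 1 array left out and 111 with the replicate block. For fresh against OP9-Dll4, limma called 0 genes (1790 at an unadjusted p under 0.05), 3 with the replicate block, 0 to 5 with 1 array left out and 4 without Kit-D replicate 3 and Kit+D replicate 3. The cause of these changes was not tested.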
